A study of Mus musculus with 9 samples.

Results

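Integrin subunit genes were followed across all arrays of the series. The 10 genes were taken by name (Itga1, Itga2, Itga3, Itga4, Itga5, Itga6, Itgav, Itgb1, Itgb3 and Itgb5), out of 18193 mouse genes that the array type measures with probe sets of a single gene symbol. The rule reads gene names and no intensities, but the genes were proposed with earlier results of these data known. They have 34 probe sets, a probe set being a group of short probes that together give 1 intensity. Of these, 29 probe sets of 9 genes passed the filter on low intensities and were tested, and the single probe set of Itga2 did not pass.

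The cells were NIH 3T3, an established line of mouse embryonic fibroblasts, serum-starved before treatment, and 9 Affymetrix arrays of their total RNA fall into 3 groups of 3. Control cells received no actin drug. Another group received cytochalasin D, which caps actin filaments, at 2 µM for 90 min. The last, called the double-drug group here, received latrunculin B, which binds monomeric actin (G-actin), at 5 µM for 90 min in addition to cytochalasin D at 2 µM. Every group, the control included, was under the translation blocker cycloheximide at 3 µg/ml for 2 h, and no group without it was analysed here. For the last group the sample titles mention latrunculin B alone, while its agent label and the design text mention the 2 drugs, and the agent label was followed. The design text calls the 3 arrays of a group independent biological replicates, and their titles number them 1, 3 and 7.

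Integrins are receptors of the cell surface, each made of an alpha and a beta subunit. Their outer parts bind matrix proteins such as fibronectin, collagens and laminins, and their short tails bind talin and kindlins, through which they are coupled to actin filaments at focal adhesions. In fibroblasts, Itga5 pairs with Itgb1 to form the main fibronectin receptor, while Itgb1 is also the partner of Itga1, Itga2, Itga3, Itga4, Itga6 and Itgav, and Itgav in addition pairs with Itgb3 and Itgb5. Cytochalasin D releases the coactivator MRTF from G-actin and latrunculin B keeps it bound there, and MRTF acts with serum response factor (SRF), whose DNA motif is called the CArG box.

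Array medians lay between 7.57 and 7.84, so intensities near or below this level are low for these arrays. Of 9 fibroblast markers, 8 lay above the array median on all 9 arrays (Fap did not), among them Col1a2, Col3a1 and Vim. The same was true of 0 of 5 endothelial, 2 of 6 leukocyte (Adgre1 and Csf1r), 3 of 6 epithelial (Epcam, Cdh1 and Krt14) and 1 of 3 measured platelet markers (Itga2b). The pan-leukocyte marker Ptprc stayed between 5.03 and 5.27, and the endothelial marker Pecam1 between 4.13 and 4.25.

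Itga5 is the subunit that gives the fibronectin receptor its specificity. It was the only member with a rise in RNA with cytochalasin D that passed the main limma test given below. Its brightest probe set, 1423267_s_at, had intensities of 182, 146 and 126 in the control arrays numbered 1, 3 and 7. With cytochalasin D it had 578, 580 and 698. In the double-drug group it had 236, 216 and 252. The 3 groups did not overlap: all cytochalasin D arrays were highest, the controls lowest, and the double-drug arrays lay between them. The group means were 151 ± 28.6, 619 ± 68.4 and 235 ± 17.7 (SD, n = 3 each). In bulk RNA, more cells with the transcript and more transcript per cell cannot be told apart.

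The probe set 1423268_at, whose name carries no suffix for shared probes, gave the same order of groups. Control arrays had 45.9, 17.9 and 21.6, cytochalasin D arrays 157, 160 and 144, and double-drug arrays 57.5, 53.1 and 47.0. Here too the groups did not overlap, although the control array numbered 1 came close to the double-drug arrays. The suffix s of the brightest probe set marks probes that can bind more than 1 transcript, and which others they bind was not tested.

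The remaining Itga5 probe sets were dimmer. On 1458996_at the controls had 25.1, 18.5 and 25.1 and the cytochalasin D arrays 58.1, 47.4 and 102, whereas the double-drug arrays, at 22.4, 26.8 and 26.8, overlapped with the controls. On 1457561_at the controls had 14.7, 15.8 and 15.8, the cytochalasin D arrays 22.7, 55.1 and 51.6, and the double-drug arrays 16.7, 19.0 and 19.0. The low cytochalasin D value on this probe set is that of the array numbered 1. On both of these dimmer probe sets the double-drug arrays numbered 3 and 7 had values equal in every digit given, and the reason was not tested. Across the 9 arrays the 4 probe sets had Pearson correlations between 0.79 and 0.97 with each other, given as a description, since all 4 share the arrays and the groups.

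**Figure D1:**
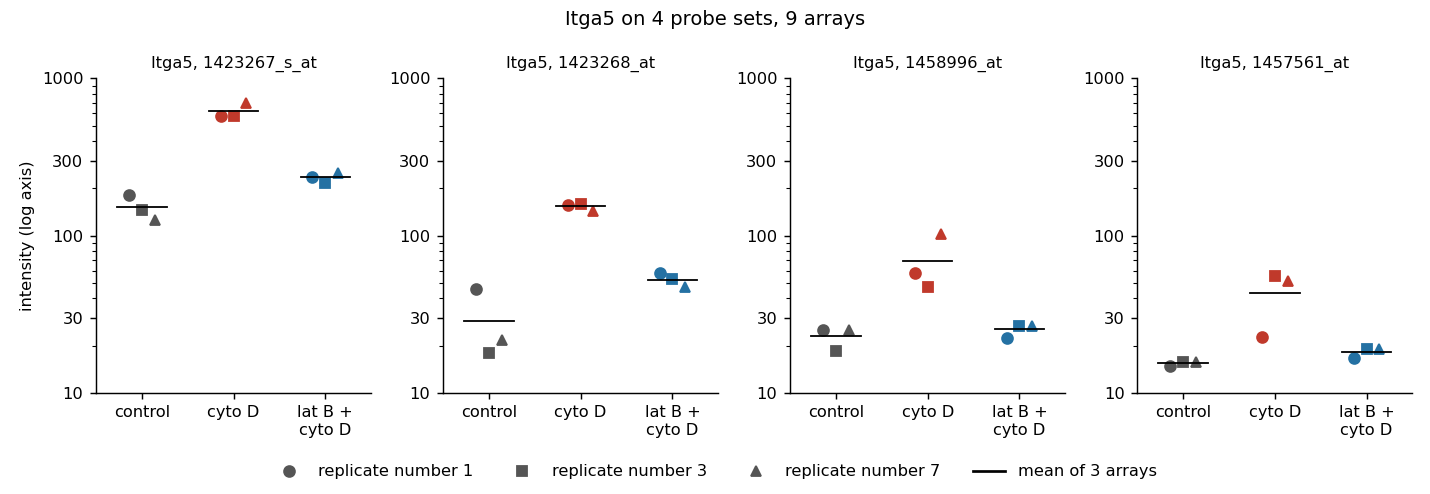
Intensity on a log axis of the 4 Itga5 probe sets in control, cytochalasin D (cyto D) and latrunculin B with cytochalasin D (lat B + cyto D) arrays; each point is 1 array, its shape gives the replicate number and the line is the mean of 3 arrays. On every probe set the cytochalasin D arrays lie above all control and double-drug arrays, from 578 to 698 against 126 to 252 on the brightest one.

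The bases before the transcript start of Itga5 and Itgb1 are shown because SRF is the factor through which the drugs' effect on G-actin is known to reach genes, and because these subunits form 1 receptor. Sequences are from RefSeq on assembly GRCm38.p6, 250 bases up to the annotated start, 5′ to 3′ on the strand of the gene, for chr15:103366792-103367041 (minus strand) and chr8:128685404-128685653 (plus strand). Capitals mark the match to the CArG box with exactly 1 letter off.
Itga5: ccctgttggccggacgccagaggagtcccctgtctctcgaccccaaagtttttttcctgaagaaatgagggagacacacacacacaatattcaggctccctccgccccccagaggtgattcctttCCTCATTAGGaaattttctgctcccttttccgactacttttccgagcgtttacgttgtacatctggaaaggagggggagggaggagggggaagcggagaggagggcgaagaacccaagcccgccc
Itgb1: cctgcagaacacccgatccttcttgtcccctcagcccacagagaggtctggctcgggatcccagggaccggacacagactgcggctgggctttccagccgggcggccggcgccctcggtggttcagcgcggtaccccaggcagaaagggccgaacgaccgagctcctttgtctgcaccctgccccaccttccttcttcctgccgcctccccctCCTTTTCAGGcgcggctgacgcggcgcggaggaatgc

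Both strands were searched in all 32851 promoters of that length. An exact CArG box was in 0 of the 9 promoters of 8 members with an entry and in 1.47% of all promoters. A match with 1 letter off was in those of Itga5, Itgb1 and Itga1, and in 17.5% of all promoters. The match begins at −125 in Itga5 and at −37 in Itgb1, counted in bases from the annotated start. GGAATG, the core bound by TEAD factors, was in the Itgb1 promoter (12.6% of all promoters) and not in that of Itga5, and TGANTCA, bound by AP-1, was in neither (6.75% of all). GGGCGG, bound by Sp1, was in both (32.7% of all). Promoters of Itga6 and Itgb3 were not used here. A match is no more than a run of letters, and these data hold no measurement of factor binding.

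The first comparison asks what cytochalasin D changed without new protein synthesis. Changes were computed on the log2(intensity + 16) scale, on which the changes of probe sets of low intensity are understated, and a probe set was called at a Benjamini-Hochberg adjusted p under 0.05 over all 27010 probe sets tested with limma. Itga5 rose by 1.93 on 1423267_s_at (SE 0.13, adjusted p = 0.00174) and by 1.98 on 1423268_at (SE 0.21, adjusted p = 0.00752). The same probe sets took places 57 and 52 by size among the 309 called rises. The changes of 1458996_at (1.08, SE 0.22, adjusted p = 0.0849) and 1457561_at (0.86, SE 0.22, adjusted p = 0.168) did not pass, though on all 4 probe sets each cytochalasin D array was above each control. Such upward separation was seen in 5.05% of all tested probe sets. Without the cytochalasin D array numbered 1, 1457561_at was called (1.14, adjusted p = 0.000969), and without the one numbered 7, 1458996_at was (0.82, adjusted p = 0.0356), as it was with a filter at the 60th percentile (1.08, adjusted p = 0.0314).

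Counted over the family, 2 of 29 tested integrin probe sets rose and 0 fell, beside 1.14% of all tested probe sets called higher and 0.422% called lower. Both calls belong to Itga5. The calls of 1423267_s_at and 1423268_at held in limma with each of the 9 arrays left out in turn, but on the 6 arrays of the compared groups alone 1423268_at was no longer called (adjusted p = 0.0767). Leaving out the cytochalasin D array numbered 1 raised the count of called integrin probe sets to 4, through 1457561_at and a probe set of Itgb5 that was lower by 0.18 (adjusted p = 0.0426).

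Among the other subunits, no probe set passed, and the 25 tested ones changed by between −0.14 and 0.76, with a median of 0.01 beside 0.00 for all tested probe sets. At an unadjusted p under 0.05 there were 3 of these 25 in limma, beside 10.2% of all probe sets tested. Group values did not overlap for 4 of them in the upward and 1 in the downward direction, beside 5.05% and 6.45% of all tested probe sets.

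**Figure D2:**
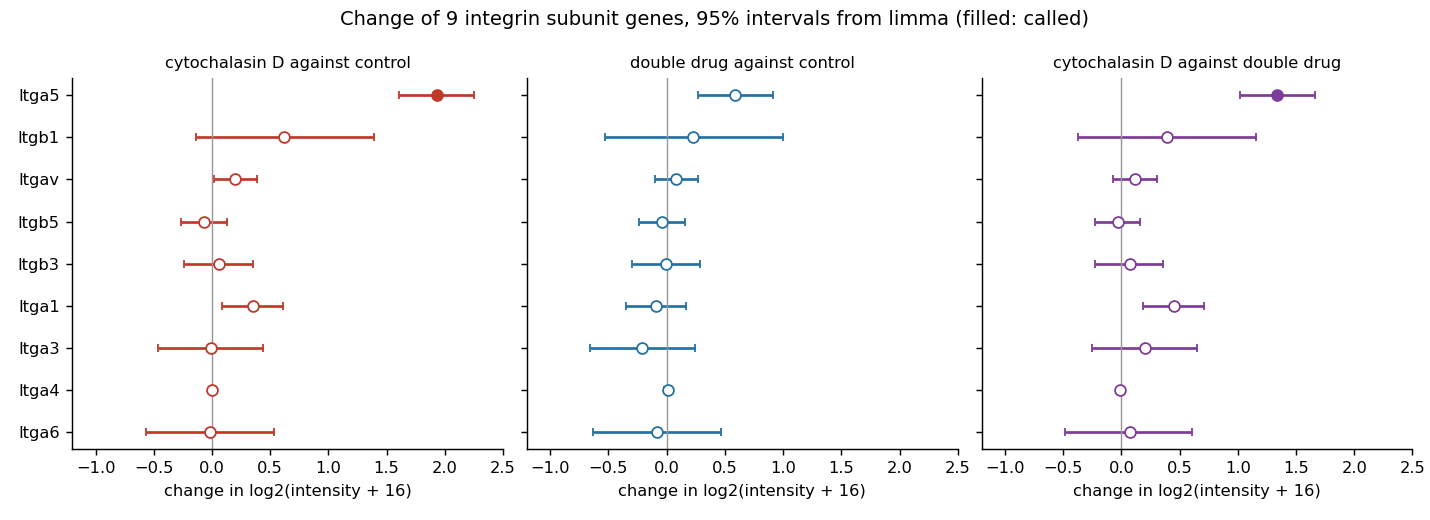
Change in log2(intensity + 16) with its 95% interval from limma for the brightest probe set of 9 integrin subunit genes in the 3 comparisons (n = 3 arrays a group); filled points passed the adjusted p of 0.05 and open ones did not. Itga5 lies at 1.93, 0.59 and 1.34, and the interval of Itgb1 is wide, from −0.14 to 1.39 in the first comparison.

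Itgb1, the beta partner of Itga5, had higher cytochalasin D values that were not separated from the spread within groups in the fit without replicate numbers. Its brightest probe set, 1426918_at, had 3114, 2105 and 1695 in the controls numbered 1, 3 and 7. With cytochalasin D it had 4294, 3505 and 2727, and in the double-drug group 3838, 2285 and 2062. All 3 groups overlapped, and within each of them the array numbered 1 was highest and the one numbered 7 lowest. Its change with cytochalasin D was 0.62 (95% interval −0.14 to 1.39, limma adjusted p = 0.631), which did not pass. Between same-numbered arrays cytochalasin D was 1.38, 1.67 and 1.61 times the control for numbers 1, 3 and 7. A rise in all 3 such pairs was seen in 14.9% of all tested probe sets. In an alternative fit with the replicate number as a block the interval was 0.40 to 0.85 (limma adjusted p = 0.0318). That fit called 3.87% of all tested probe sets.

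A further Itgb1 probe set, 1452545_a_at, had 2578, 1546 and 1277 in controls, 3493, 3291 and 2177 with cytochalasin D, and 3102, 1810 and 1650 in the double-drug group, a first change of 0.76 (interval −0.08 to 1.60, adjusted p = 0.562). The third, 1427771_x_at, ran from 110 to 166 in controls, from 161 to 188 with cytochalasin D and from 143 to 212 with both drugs, a change of 0.32 (adjusted p = 0.664). On these as well the array numbered 1 was the highest of each group. The other Itgb1 probe sets stayed below 10 on every array and changed by at most 0.02. Without the block the intervals include both no change and a rise of more than 1.0 on the log2 scale for the pair of brightest probe sets. With it 1452545_a_at and 1427771_x_at were not called (limma adjusted p = 0.0676 and 0.0859).

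Itgav, the alpha subunit of the vitronectin receptors, had its highest level on 1452784_at. The values were 1986, 2127 and 1826 in controls, 2214, 2313 and 2304 with cytochalasin D, and 2330, 1951 and 2026 in the double-drug group. Cytochalasin D arrays were above all controls by a small margin, a change of 0.20 (interval 0.02 to 0.39, adjusted p = 0.432) that did not pass. On 1421198_at the replicate number set the values apart more than the drug did. The arrays numbered 1 had 356, 437 and 410 in control, cytochalasin D and double-drug cells, and all the others lay between 109 and 331. The change on that probe set was 0.66 with an interval from −0.83 to 2.14. With the replicate number as a block its interval was −0.03 to 1.34 (limma adjusted p = 0.283). Between same-numbered arrays cytochalasin D was 1.23, 2.19 and 1.62 times the control on 1421198_at for numbers 1, 3 and 7. On 1452784_at it was 1.11, 1.09 and 1.26 times the control. A rise in all 3 such pairs was seen in 14.9% of all tested probe sets.

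**Figure D3:**
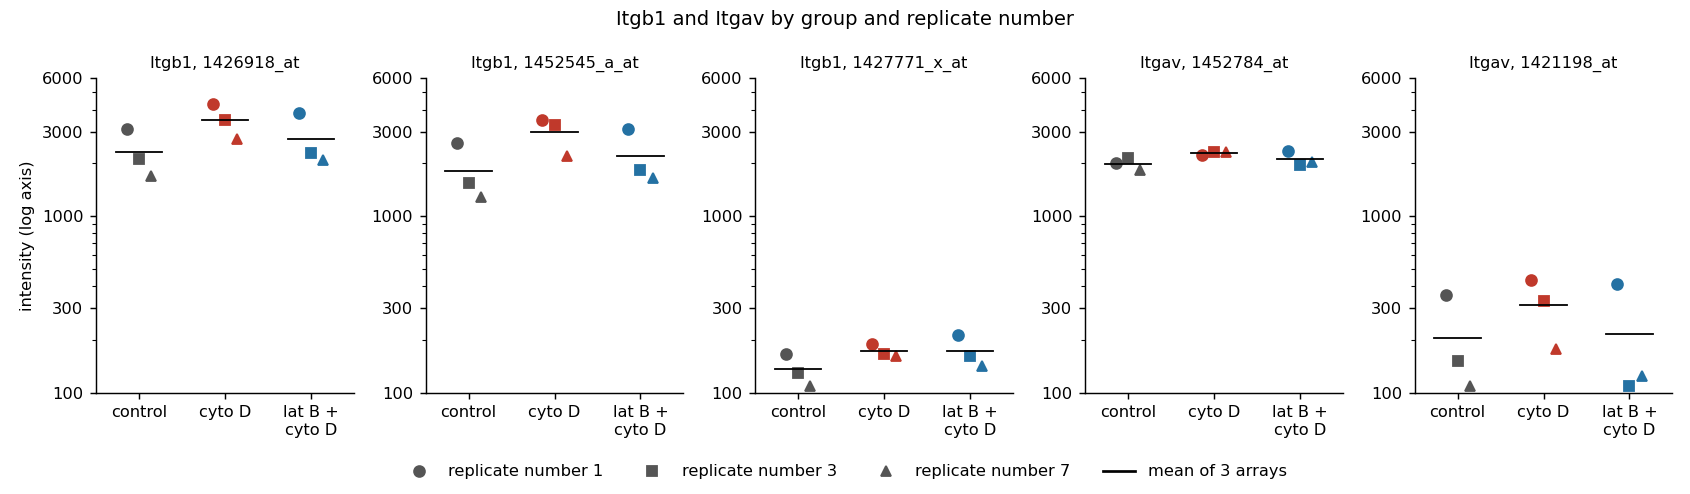
Intensity on a log axis of 3 Itgb1 and 2 Itgav probe sets in the 3 groups; points are arrays, shapes give the replicate number and lines are means of 3 arrays. The arrays numbered 1 lie highest in each group on the Itgb1 probe sets and on Itgav 1421198_at, where they reach 356 to 437.

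The beta partners of Itgav showed no call. Itgb5 was bright on all 4 of its probe sets, and its changes with cytochalasin D ran from −0.14 to −0.07. On 1456133_x_at the controls had 1423, 1403 and 1394, the cytochalasin D arrays 1372, 1244 and 1240, and the double-drug arrays 1317, 1273 and 1240. Every drug-treated array was thus below every control there, with a change of −0.13 (interval −0.23 to −0.03, adjusted p = 0.325) in the first comparison and −0.14 (interval −0.24 to −0.04, adjusted p = 0.637) in the second. Such downward separation from the controls was seen in 6.45% and 3.99% of all tested probe sets in these comparisons. The 3 other Itgb5 probe sets had overlapping groups. On 1417533_a_at and 1417534_at the arrays numbered 1 were above all others, at 1113 to 1227 and 1423 to 1524. Itgb3, the partner in the vitronectin receptor that platelets also carry, lay between 11.7 and 24.1 on its brighter probe set, and changed by 0.06 (interval from limma −0.24 to 0.35).

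Itga1, a collagen receptor subunit, had 22.3, 30.3 and 21.7 in controls on 1455251_at. It had 38.9, 38.1 and 30.9 with cytochalasin D and 25.6, 18.5 and 22.4 in the double-drug group. The cytochalasin D arrays were above all others, with changes of 0.35 (interval 0.09 to 0.61, adjusted p = 0.29) against control and 0.45 (interval 0.19 to 0.71, adjusted p = 0.453) against the double-drug group, neither of which passed in limma.

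The laminin receptor subunits Itga3 and Itga6 had overlapping groups on their brightest probe sets. Itga3 ran from 59.0 to 83.2 in controls and from 59.4 to 84.3 with cytochalasin D, a change of −0.01 (interval −0.46 to 0.44). Itga6 ran from 445 to 690 in controls and from 422 to 731 with cytochalasin D on 1422445_at, a change of −0.02 (interval −0.57 to 0.53). These intervals leave room for changes of about 0.5 in either direction. The weaker Itga3 probe set 1421997_s_at was slightly higher with cytochalasin D (19.8, 22.7 and 24.9) than in controls (19.1, 19.0 and 18.6), a change of 0.14 (adjusted p = 0.828).

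Itga4, whose receptor binds VCAM-1 and fibronectin, lay below the array median on all 9 arrays with all 5 of its probe sets, none of them above 7.49. Itga2, the other collagen receptor subunit, lay between 5.51 and 6.06. No detection calls accompany the values, so a level for these genes cannot be separated from background. In all, 9 member probe sets of 4 genes were below the array median on every array, and 4 of them were tested.

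The second comparison sets the double-drug group against the controls. At an unadjusted p under 0.05 in limma there were 3 of 29 integrin probe sets, beside 5.28% of all tested ones. None was called (0 of 29), beside 0.111% of all tested probe sets (0.1% higher, 0.0111% lower). With the replicate number as a block the count of members was 0 too, beside 0.455% of all. Itga5 differed from control by 0.59 on 1423267_s_at (interval 0.27 to 0.91, adjusted p = 0.32) and by 0.67 on 1423268_at (interval 0.16 to 1.18, adjusted p = 0.673), and neither passed, although the group values did not overlap. Such separation in the upward direction was seen in 4.09% of all tested probe sets. Without the control array numbered 1, the change of 1423268_at became 0.94 and was called (adjusted p = 0.0328). The other Itga5 probe sets had changes of 0.09 and 0.12. Among the other subunits the changes ran from −0.21 to 0.31, the largest being that of Itgb1 on 1427771_x_at.

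The third comparison sets cytochalasin D against both drugs together. Itga5 was higher with cytochalasin D alone by 1.34 on 1423267_s_at (SE 0.13, interval 1.02 to 1.66, adjusted p = 0.031), the only one of 29 integrin probe sets to be called, beside 0.259% of all tested probe sets called and 0.248% called higher. The change was 1.31 on 1423268_at (interval 0.80 to 1.82, adjusted p = 0.123), 0.74 on 1457561_at (adjusted p = 0.697), and on 1458996_at its interval ran from 0.47 to 1.52 (adjusted p = 0.337). On all 4 of them each cytochalasin D array lay above each double-drug array, beside 2.92% of all tested probe sets. The 25 probe sets of other subunits changed by between −0.07 and 0.67, with none called. At an unadjusted p under 0.05 in limma there were 2 of these 25, beside 4.22% of all tested probe sets.

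The call of 1423267_s_at in the third comparison was close to the threshold and came from the fit that leaves the replicate numbers out. It was lost without any of the cytochalasin D arrays numbered 1, 3 or 7 (limma adjusted p = 0.069, 0.101 and 0.0745), any of the double-drug arrays numbered 1, 3 or 7 (0.137, 0.152 and 0.108), or the control numbered 3 (0.0878), while the change itself stayed between 1.25 and 1.39. With the replicate number as a block, under which 0.367% of all tested probe sets were called, the adjusted p was 0.058, without a filter 0.0713, and on the 6 arrays of the compared groups 0.0597. Without the control numbered 1, 1423268_at was called as well (1.31, adjusted p = 0.0148). It was also called on the 6 arrays of the compared groups (0.0365), with the filter at the 60th percentile (0.0409) and with an added constant of 64 (0.90, adjusted p = 0.0464). Since the comparisons share arrays in pairs, the 3 results for Itga5 are not independent of each other.

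To set Itga5 against the other subunits, its log2 value was reduced within each array by that of each other tested subunit, each gene standing with its brightest probe set, and the groups were compared in these 8 differences. With cytochalasin D against control, Itga5 gained on the others by between 1.31 (Itgb1) and 2.00 (Itgb5), with a median of 1.90. For all 8 subunits the 3 cytochalasin D arrays were above the 3 controls. Itga4, however, lay below the array median on all 9 arrays and changed by 0.00, so its difference of 1.93 is the change of Itga5 alone. Changes of the dim Itgb3 and Itga1 are understated on this scale as well. In the double-drug group against control the gain was 0.36 to 0.81, median 0.62, and the arrays were apart for 7 of 8 subunits, with overlap for Itgb1 (0.36, pooled SD 0.38). Cytochalasin D exceeded the double-drug group by 0.89 (Itga1) to 1.37 (Itgb5), median 1.25, apart for all 8. An exact two-sided permutation test gave p = 0.1 for each difference whose arrays were apart, which is the smallest value 3 against 3 arrays can give, and p = 0.3 for Itgb1 in the double-drug group. Adjusted over the 24 tests, the smallest p was 0.104. With 3 arrays a group no such test can reach 0.05, so these p-values do not bear on the differences. They also leave the replicate numbers out. The 8 differences share the Itga5 values and are not independent.

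**Figure D4:**
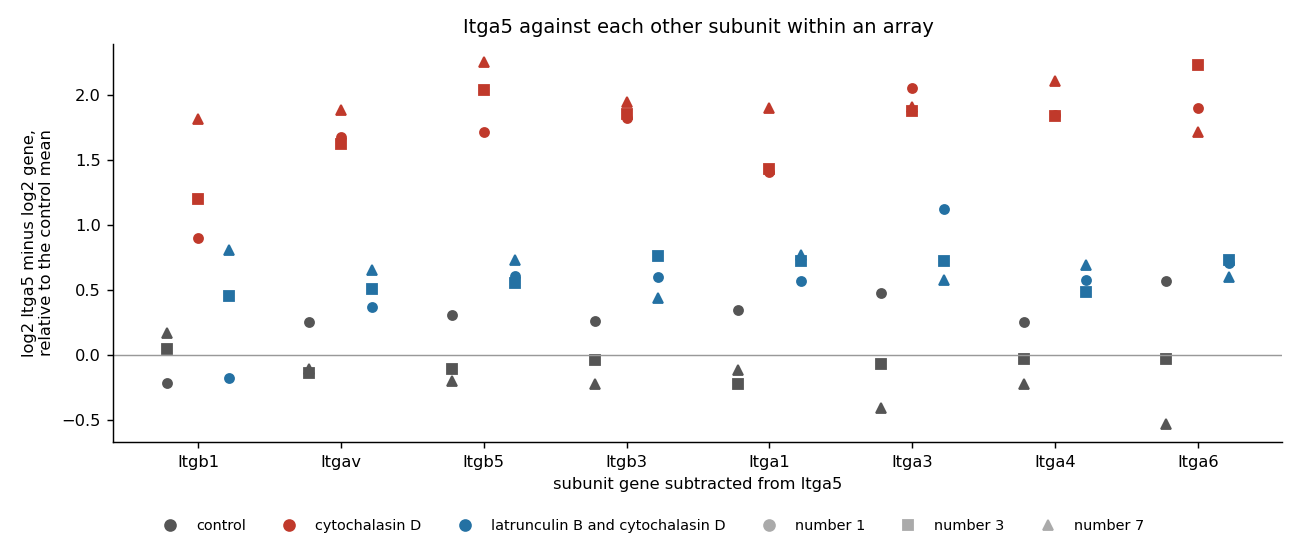
Difference in log2(intensity + 16) between Itga5 and each of 8 other integrin subunit genes within an array, relative to the mean of the controls; each point is 1 array, colour gives the group and shape the replicate number. The cytochalasin D arrays lie above all controls for each of the 8 genes, and the double-drug arrays lie between them, overlapping with the controls for Itgb1.

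With averages over all tested probe sets of a gene in place of the brightest one, the median gain of Itga5 was 1.44, 0.39 and 0.96 in the 3 comparisons. The order of the groups was thus the same, with smaller differences, since the dim Itga5 probe sets enter these averages.

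The genes whose values over the 9 arrays were most like those of Itga5 1423267_s_at were Ccn2 (Pearson r = 0.995), Lurap1l (0.986), Bag2 (0.986), Gcnt2 (0.985) and Ankrd1 (0.982), out of 11861 genes compared. Ccn2, a secreted matricellular protein that itself binds integrins, had mean intensities of 5142, 20696 and 7691 in control, cytochalasin D and double-drug cells. Bag2, a cochaperone of Hsp70, had 430, 1999.5 and 714. Among the subunits the likeness to Itga5 was 0.73 for Itgav, 0.72 for Itga1, 0.63 for Itgb1 and −0.34 for Itgb5, and between −0.03 and 0.28 for the rest. These correlations are descriptions, since all of the arrays share the same 3 groups.

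The other genes of integrin adhesion were taken from 4 lists. Of 16 further integrin subunits (such as Itga7, Itga9, Itgb4 and Itgb8), 7 were tested on 8 probe sets and none was called in limma in any comparison. At an unadjusted p under 0.05 there were 1, 0 and 0, beside 10.2%, 5.28% and 4.22% of all tested probe sets. The median change of these subunits with cytochalasin D was 0.00.

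Integrin ligands held calls in each comparison. With cytochalasin D 2 of 19 tested genes rose and 1 fell, 10.5% of their 38 probe sets beside 1.57% of all, with a median change of 0.04. Ccn1, a matricellular ligand, rose by 2.06 (2754 ± 295 to 11555 ± 1017, SD, n = 3), called on 2 of 4 probe sets, and Ccn2 rose by 2.02 (adjusted p = 0.00261). Col1a2, a collagen I chain, fell by 1.42 on 1 probe set of 3, not its brightest (72.2 ± 31.6 to 15.8 ± 2.97, SD, n = 3), a call lost without any 1 of 8 of the 9 arrays, the control numbered 3 being the exception. In the second comparison Ccn1 rose by 1.70, called on 1 of 4 probe sets. The call was lost without the cytochalasin D arrays numbered 1 or 3, any double-drug array, or the control numbered 3 (adjusted p from 0.0577 to 0.121). It was also lost in limma on the 6 arrays of the compared groups (adjusted p = 0.088) and was kept with the replicate number as a block (0.00299). In the third Ccn2 was higher by 1.42, lost without any array other than the control numbered 1 (adjusted p from 0.0644 to 0.18) and with the replicate number as a block (0.086). Each of these 2 comparisons thus had 1 call, 2.63% of the 38 probe sets, beside 0.111% and 0.259% of all.

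The cytoplasmic partners, which link integrin tails to actin, had 6 of 23 tested genes higher and 1 lower with cytochalasin D. This was 14.6% of their 48 probe sets beside 1.57% of all, with a median change of 0.10. Tgfb1i1 (Hic-5), a LIM protein of focal adhesions, rose by 1.47 from 380 ± 17.8 to 1087 ± 167 (SD, n = 3). Lims2 (PINCH-2), which binds integrin-linked kinase, rose by 1.38 from 13.5 ± 2.86 to 61.1 ± 13.3, and Lims1 (PINCH-1), its relative, rose by 0.43 on 1 of 5 probe sets, from 281 ± 15.8 to 383 ± 9.45 (SD, n = 3 each). Dab2, an endocytic adaptor of integrin beta tails, fell by 0.95 on 1 of 4 probe sets, from 39.6 ± 7.29 to 12.5 ± 0.09 (SD, n = 3). These 4 calls held in limma with any single array left out. The other rises, of Fermt2 (0.94), Vcl (vinculin, 1.33) and Bcar1 (p130Cas, 0.56), were each called on 1 of 2 tested probe sets. Fermt2 was lost without the control numbered 7. Vcl was lost without any control, or the cytochalasin D or double-drug array numbered 3. Bcar1 was lost without the control numbered 3, the cytochalasin D arrays numbered 3 or 7, or the double-drug array numbered 1. On the 6 arrays of the compared groups, only Tgfb1i1 of the 6 rises was called (adjusted p = 0.0282), and Lims2 (0.061), Lims1 (0.0511), Fermt2 (0.084), Bcar1 (0.125) and Vcl (0.104) were not, while the fall of Dab2 was (0.0498).

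In the second comparison Dab2 was the only partner called, lower by 0.94, and in the third Lims2 was, higher by 1.23. Dab2 lost this call without any array other than the control numbered 1 (adjusted p from 0.0799 to 0.176), and Lims2 without any other than the cytochalasin D array numbered 1 (adjusted p from 0.0591 to 0.174). With the replicate number as a block, Tgfb1i1 (0.83, adjusted p = 0.0383) and Fermt2, a kindlin (0.61, adjusted p = 0.0269), were also higher in the second comparison, beside 0.455% of all tested probe sets called. Fermt2, Vcl and Bcar1 were named after their values were seen. Without the block each comparison had 1 call, 2.08% of the 48 probe sets, beside 0.111% and 0.259% of all.

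Of the membrane partners and traffic proteins, 1 of 13 genes rose and 1 fell with cytochalasin D, 8.33% of 24 probe sets beside 1.57% of all. Plaur, the urokinase receptor, which associates with integrins at the surface, rose by 2.41 from 212 ± 88.7 to 1142 ± 116 (SD, n = 3, limma adjusted p = 0.00758), but was not called on the 6 arrays of the compared groups (adjusted p = 0.0685). Sdc1, a heparan sulfate proteoglycan, fell by 0.26 on 1 of 4 probe sets, a call lost without any control (adjusted p = 0.0627, 0.0867 and 0.0655 for numbers 1, 3 and 7) or the double-drug array numbered 1 (0.0502). In the second and in the third comparison none of this list was called in limma. At an unadjusted p under 0.05 there were 2 of 24 probe sets in each, beside 5.28% and 4.22% of all.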

How the data were processed

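RNA of 9 cultures was measured on Affymetrix arrays. What the authors deposited is 1 normalized intensity for each probe set of each array. MAS5 and GCRMA are both named, without a version, per the submitters' processing notes, and which of them gave these values is not given in the sources used here. The linear scale was read from the values. No 2 arrays shared more than 5.06% of their values. Of 45101 probe sets 34945 carried 1 symbol in the platform annotation, apart from control probe sets, and 932 several. Symbols were updated through gene identifiers with a table of GRCm38.p6, and probe sets with several symbols name no gene here.

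Deposited intensities were turned into log2(intensity + 16). A probe set was tested if it was above the 40th percentile of its array (6.16 to 6.35) on at least 3 arrays, which left 27010. All 9 arrays were fitted with limma 3.58.1 in R 4.3.3 (lmFit and eBayes, 1 coefficient per group), tested on simulated data. P-values are two-sided with Benjamini-Hochberg adjustment over all probe sets of a comparison. The number of arrays limits the precision. Each member is described by at least its brightest probe set. Some of the other member probe sets are not described singly, and the counts cover all that were tested. For the adhesion lists up to 4 called genes with the smallest adjusted p are named, and for likeness to Itga5 the 5 highest correlations. Members and lists were chosen with earlier results of these data known.

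Same-numbered arrays deviated from their group means with correlations from 0.41 to 0.83, except 0.08 for the control and cytochalasin D arrays numbered 3. The numbers come from the titles. With a correlation of 0.08 for 1 pair of arrays, the pairing is less clear in the first comparison. Calls in all 3 comparisons come from the fit without the numbers unless the block is named, and fits with the block are alternatives.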

Additional observations from a re-analysis of the deposited data

How the results depend on the processing

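The change of the brightest Itga5 probe set with cytochalasin D kept its direction and call under every alternative, and was 1.82 to 2.06 with single arrays left out. Against the double-drug group it was 1.34 and not called without a filter, with the replicate block or on 6 arrays, and 1.25 to 1.39 with single arrays left out. Counts of called integrin probe sets in the third comparison were 2 with an added constant of 64 or a filter at the 60th percentile, 0 without a filter or with the replicate block, and 0 to 2 with arrays left out. In the first the count was 1 on 6 arrays and 2 to 4 with arrays left out, and in the second 0 to 1. The median change of the members with cytochalasin D was 0.24 after the 60th percentile filter, which leaves fewer probe sets. The gain of Itga5 on the others was 1.44, 0.39 and 0.96 with averaged probe sets.

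With the replicate block in the first comparison, where the pairing is less clear, 1044 probe sets (3.87%) were called in place of 423. Itgb1 1426918_at was among them (0.62, limma adjusted p = 0.0318). Among the arrays of other groups, each of the 9 arrays correlated best with one of its own number, in deviations from the group means. Otherwise the block changed no call of a member beyond Itga5 in the third comparison. Of 2319 alternative values of single probe sets, 71 changed sign while called under neither setting, and none while called. The low intensities of Itga2 and Itga4, below the array median on every probe set, limit what can be seen of these genes.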
